A study of Mus musculus with 20 samples.

Results

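The 8 genes described here belong to cholesterol synthesis and to the SREBP2 system that controls it, and were taken by their Ensembl identifiers from a table of 49315 mouse genes. They are Hmgcs1, Idi1, Fdps, Fdft1, Sqle and Lss, which encode enzymes of the pathway, Insig1, which encodes a sterol-sensing inhibitor of SREBP2, and Srebf2, which encodes SREBP2 itself. The study asked how loss of the RNA-binding protein Pcbp2 changes gene expression in splenic T effector cells. CD4+CD25- cells were flow sorted from CKO mice (Fl-Pcbp2/CD4cre, a floxed Pcbp2 gene together with a Cre recombinase driven by the Cd4 promoter) and from CTL littermates (Fl-Pcbp2, the same floxed gene). RNA was sequenced from cells activated for 6 h with CD3/CD28 beads and from unstimulated cells (0 h). There were 3 CKO and 5 CTL libraries at 6 h, and 6 CKO and 6 CTL libraries at 0 h. The Cd4 promoter is active in developing T cells, so deletion in this model precedes the sort. Effects of the beads and of 6 h in culture cannot be told apart, as no unstimulated 6 h culture was analysed here. Each title carries a number such as 4.24, which names libraries in this text. Libraries are not tied to animals by the labels, and p-values measure the spread between these libraries.

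Cells make cholesterol from acetyl-CoA through mevalonate, isoprenoid diphosphates, squalene and lanosterol. When sterols in the endoplasmic reticulum run low, the escort protein Scap carries SREBP2 to the Golgi, where proteases release its transcription factor domain, which then activates the genes of the pathway. Insig proteins hold Scap and SREBP2 back when sterols are plentiful, and Insig1 is itself an SREBP2 target. T cells that prepare to divide are known to raise sterol synthesis. SREBP2 acts at sterol regulatory elements near the start of its target genes, often together with the factors NF-Y and Sp1.

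Promoter windows from 250 bases before to 50 bases after the start site were held by RefSeq on GRCm38.p6 for 5 of the 8 genes, namely Hmgcs1, Idi1, Insig1, Lss and Srebf2. The windows of Hmgcs1, Insig1 and Srebf2 are shown because they hold letters of a sterol regulatory element or an E-box bound by SREBP. They run 5′ to 3′ on the + strand, at chr13:119690101-119690400 for Hmgcs1, chr5:28071162-28071461 for Insig1 and chr15:82147019-82147318 for Srebf2. Capitals mark TCACNCCAC, its start TCACCCCA, TCACGTG, and CCAAT, which reads ATTGG where it lies on the opposite strand.
Hmgcs1: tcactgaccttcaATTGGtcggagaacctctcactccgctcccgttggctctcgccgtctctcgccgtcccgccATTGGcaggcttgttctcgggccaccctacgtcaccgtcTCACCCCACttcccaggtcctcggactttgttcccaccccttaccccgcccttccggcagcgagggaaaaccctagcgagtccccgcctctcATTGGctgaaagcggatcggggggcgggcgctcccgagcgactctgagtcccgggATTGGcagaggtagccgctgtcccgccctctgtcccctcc
Insig1: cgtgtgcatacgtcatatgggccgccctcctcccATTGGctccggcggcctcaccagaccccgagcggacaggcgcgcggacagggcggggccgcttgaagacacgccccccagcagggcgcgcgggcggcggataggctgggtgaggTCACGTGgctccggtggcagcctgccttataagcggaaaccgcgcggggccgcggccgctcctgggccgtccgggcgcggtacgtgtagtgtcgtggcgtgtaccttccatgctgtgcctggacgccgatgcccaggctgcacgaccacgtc
Srebf2: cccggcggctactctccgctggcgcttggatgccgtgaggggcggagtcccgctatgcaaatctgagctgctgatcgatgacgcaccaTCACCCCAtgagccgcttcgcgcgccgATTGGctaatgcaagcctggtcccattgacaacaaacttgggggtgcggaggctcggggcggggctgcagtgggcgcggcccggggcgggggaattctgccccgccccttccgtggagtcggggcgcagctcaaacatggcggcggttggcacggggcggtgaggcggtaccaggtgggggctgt

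The sterol regulatory element TCACNCCAC was found in the Hmgcs1 window, with its first base at position -137 from the start site, and in 1 of the 5 windows in all. Across 32851 promoter windows of the same length, searched on both strands, 1.24% held it. Its first 8 letters, TCACCCCA, were found at -137 in Hmgcs1, inside the longer match, and at -162 in Srebf2, and were held by 1.56% of all windows. The shorter core CACNCCAC was in 2 of the 5 windows, inside the match of Hmgcs1 at -136 and on the opposite strand of Insig1 at -9, and in 6.24% of all windows; it is not in capitals. The E-box TCACGTGA was in 0 of the 5 windows and in 0.974% of all windows; its first 7 letters, TCACGTG, were found at -102 in Insig1 and in 3.77% of all windows. TCACCCCA and TCACGTG were added after the letters had been read. CCAAT, the NF-Y motif, was in 5 of the 5 windows and in 37.4% of all, and GGGCGG, the Sp1 motif, was in 5 of 5 and in 35.7% of all. Hmgcs1 had 4 CCAAT matches, Idi1 had 2, at -45 and -14, and Lss had 1, at -62. A match of letters is a description of the window, and no binding was measured.

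Libraries held 26.4 M to 85.6 M counts. Levels are in CPM, counts per 1 M of library size after scaling by TMM factors. Pcbp2 was at 8.72 ± 2.24 CPM in 6 h CKO and 322 ± 34.5 CPM in 6 h CTL libraries (SD, n = 3 and 5), and at 17.0 ± 3.39 CPM in 0 h CKO and 333 ± 46.9 CPM in 0 h CTL libraries (SD, n = 6 each). Within groups, no library was a copy of another, with a chi-square per degree of freedom of at least 18.7 over 43 pairs. Pairs across groups were not compared in this way. The 6 h CTL library 4.24 stood apart: it had 26.4 M counts, the highest TMM factor (1.37) and an Xist level of 195 CPM, against 742 to 1553 CPM in the other libraries with high Xist. The 0 h CKO libraries 4.24 and 5.6 were labelled male, yet their Xist levels were 1160 and 1353 CPM, and Ddx3y, a gene on the Y chromosome, was at 0.284 and 0.117 CPM. Values without these libraries are given beside the results that rest on them. All 0 h CKO libraries were labelled male. Labelled female were 4.24, 5.6 and 10.28 of 0 h CTL, 4.24 and 10.28 of 6 h CTL, and 5.6 of 6 h CKO. All 8 T cell markers were detected in every library, with summed levels of 2572 to 3095 CPM in 6 h CKO, 2281 to 2954 CPM in 6 h CTL, 5217 to 6400 CPM in 0 h CKO and 4668 to 5974 CPM in 0 h CTL libraries. The 8 B cell markers, also all detected, summed to 22.0 to 90.3, 17.7 to 56.2, 48.6 to 227 and 55.9 to 353 CPM in the same order of groups, and the 10 myeloid markers to 10.5 to 45.5, 8.95 to 28.8, 42.9 to 128 and 34.4 to 132 CPM. The marker sums of these 3 cell types were lower by their medians at 6 h. The 4 regulatory T cell markers, Foxp3, Il2ra, Ikzf2 and Gpr83, had higher summed medians at 6 h. They were 462 CPM in CKO and 294 CPM in CTL libraries, against 358 CPM in 0 h CKO and 231 CPM in 0 h CTL libraries. The sum does not show which of the 4 moved, so it does not show a gain of regulatory T cells. The 5 stromal and endothelial markers summed to 254 to 356 CPM in 6 h CKO and 178.5 to 244 CPM in 6 h CTL libraries. At 0 h they summed to 257 to 340 CPM in CKO and 231 to 278 CPM in CTL libraries. These markers were Col1a1, Col3a1, Pecam1, Cdh5 and Kdr. Their sum does not show which of the 5 carried it, so it does not show that stromal or endothelial cells were present. The stromal and endothelial sum and the regulatory T cell sum had higher medians in CKO than in CTL libraries at both times. So did the sums of T cell, B cell, CD8 T cell and dendritic markers. The myeloid sum was higher in CKO libraries at 0 h and lower at 6 h. Sums of natural killer and red cell precursor markers were lower in CKO libraries at both times. The T cell, B cell, myeloid and regulatory T cell sums moved beside every difference by time below. The part of these sums in the differences by time or by genotype was not tested. In bulk RNA, fewer cells of a type and less RNA per cell cannot be told apart.

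After 6 h with beads, Hmgcs1, Idi1 and Insig1 were higher than at 0 h in both CKO and CTL cells. Sqle and Fdps rose in CTL cells, and Lss and Srebf2 fell there. Fdft1 passed the test in neither genotype. The main fit did not pair libraries by the number in their titles. With that number as a block, Idi1 passed in neither genotype and Sqle did not pass in CTL cells. Of the 8 genes, 3 rose and 0 fell in CKO cells by edgeR's quasi-likelihood test (Benjamini-Hochberg adjusted p under 0.05 over 28082 genes), where 19.6% of all tested genes rose and 13.1% fell. In CTL cells 5 rose and 2 fell, where 41.6% of all tested genes rose and 21.7% fell. The 7 of 8 called in CTL cells thus stood beside 63.4% of all tested genes, and the 3 of 8 in CKO cells beside 32.8%. The median log2 fold change of the 8 genes was 0.28 in CKO cells and 0.42 in CTL cells, beside 0.12 and 0.31 over all tested genes. Over the 14146 tested genes with a mean of at least 1 CPM, a group that holds all 8, the medians were -0.12 in CKO cells and -0.20 in CTL cells. A fit limited to a mean of at least 1 CPM called 4836 genes in CKO cells, 2328 of them higher, and 7417 in CTL cells, 3926 of them higher. Of the 8 genes, that fit called 3 in CKO cells, all higher, and 7 in CTL cells, 6 of them higher.

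**Figure D1:**
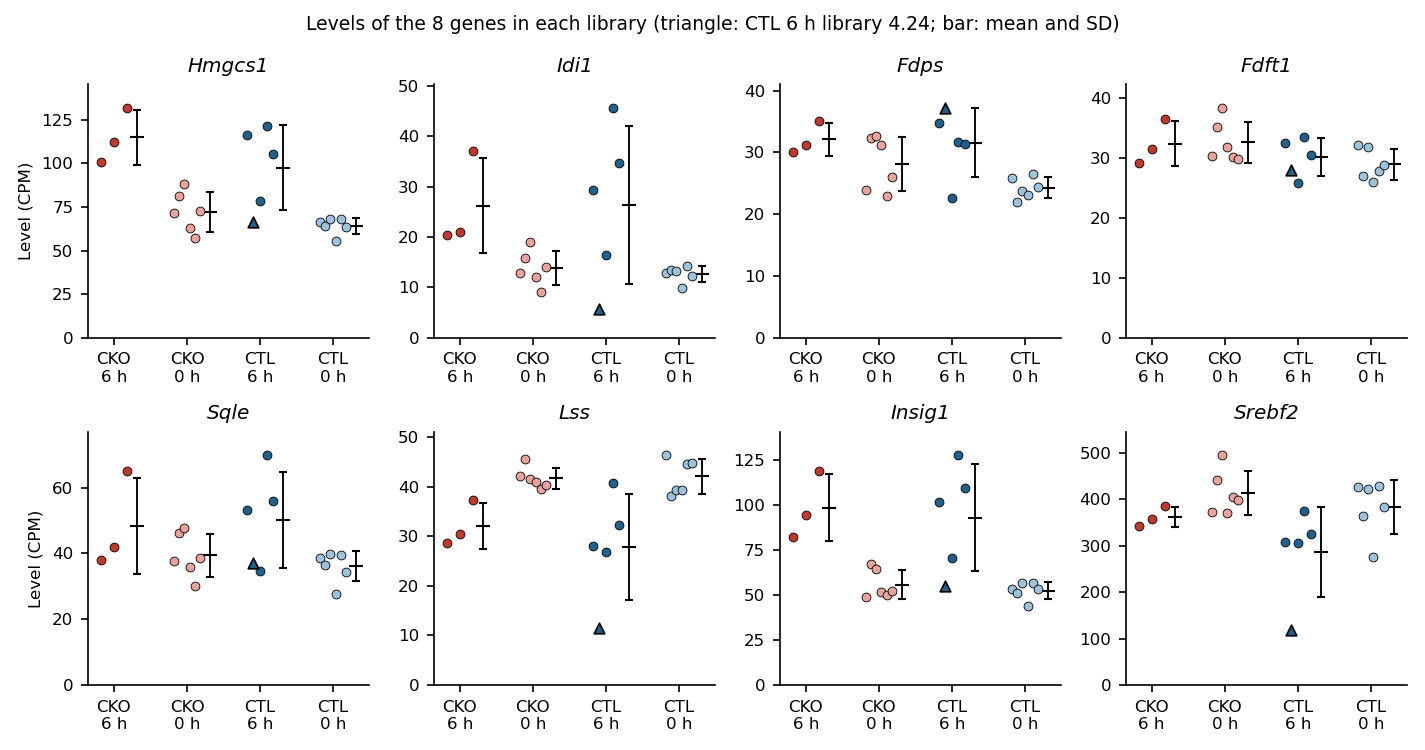
Level of each of the 8 genes in every library, in CPM on a linear axis from 0, for CKO at 6 h, CKO at 0 h, CTL at 6 h and CTL at 0 h; points are libraries (triangle, 6 h CTL library 4.24) and bars are group means with SD. Hmgcs1, Idi1 and Insig1 lie above every 0 h CKO library in all 3 of the 6 h CKO libraries, and the 6 h CTL library 4.24 has the lowest Srebf2 value, 119 CPM.

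Hmgcs1 (ENSMUSG00000093930, chromosome 13, 119690379 to 119708260, + strand, GRCm38) encodes the cytosolic HMG-CoA synthase, which acts early in the pathway, before mevalonate. It stood at 100.7, 112 and 132 CPM in the 6 h CKO libraries, against a lowest, median and highest value of 57.4, 72.1 and 88.1 CPM in 0 h CKO libraries. In CTL libraries it stood at 116, 66.1, 78.5, 121.5 and 105.4 CPM at 6 h (numbers 4.29, 4.24, 5.13, 9.20 and 10.28), against 55.8, 65.1 and 68.1 CPM at 0 h. Both CKO groups were apart, while in CTL the single overlap came from library 4.24. The log2 fold change was 0.73 ± 0.16 in CKO cells (adjusted p = 0.00251, edgeR) and 0.58 ± 0.14 in CTL cells (adjusted p = 0.00122). Hmgcs1 kept both calls under all 29 alternatives tried, which include leaving out each library in turn. An antisense transcript, Gm48342, overlaps its exons.

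Idi1 (ENSMUSG00000058258, chromosome 13, 8885501 to 8892451, + strand) encodes the isomerase that converts isopentenyl diphosphate to dimethylallyl diphosphate. Its level was 20.5, 21.1 and 37.1 CPM in 6 h CKO libraries, against 9.14, 13.4 and 18.9 CPM (lowest, median and highest) in 0 h CKO libraries. The 6 h CTL libraries had 29.3, 5.76, 16.4, 45.7 and 34.8 CPM in the same order of numbers, against 9.83, 13.1 and 14.3 CPM in 0 h CTL libraries. It varied most of the 8 at 6 h, and library 4.24 lay below every 0 h CTL library while the other four lay above them. Idi1 rose by a log2 fold change of 1.04 ± 0.37 in CKO cells (adjusted p = 0.0375, edgeR) and 1.00 ± 0.32 in CTL cells (adjusted p = 0.0105). With 6 h CTL library 4.24 left out, the CTL value was 1.30 ± 0.24, and without the 6 h CTL library 10.28 it was 0.64 ± 0.35 and did not pass (adjusted p = 0.113). The CKO call was lost in 13 of 29 alternatives, with an adjusted p of 0.0885 without the 0 h CKO libraries 4.24 and 5.6. It was lost without any 1 of 8 libraries, namely 4.29, 5.6, 9.20 and 11.18 of 0 h CKO, 5.6 and 9.20 of 0 h CTL, and 5.6 and 11.18 of 6 h CKO, at adjusted p of 0.0554 to 0.265. With the number as a replicate block the adjusted p was 0.139 in CKO cells and 0.0583 in CTL cells.

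Fdps (ENSMUSG00000059743, chromosome 3, 89093588 to 89101959, - strand) makes farnesyl diphosphate, the last intermediate shared with protein prenylation and ubiquinone synthesis. It stood at 30.04, 31.2 and 35.1 CPM in 6 h CKO libraries, against 23.0, 28.6 and 32.7 CPM in 0 h CKO libraries, and at 34.8, 37.3, 22.6, 31.7 and 31.4 CPM in 6 h CTL libraries, against 22.0, 24.1 and 26.5 CPM in 0 h CTL libraries. The groups overlapped in both genotypes, in CTL through the 6 h library 5.13. The log2 fold change was 0.19 ± 0.15 in CKO cells (adjusted p = 0.339, edgeR) and 0.38 ± 0.12 in CTL cells (adjusted p = 0.0109, or 0.053 without the 0 h CKO libraries 4.24 and 5.6). The CTL call was also lost without 0 h CKO library 4.29 or 5.6 or 0 h CTL library 5.6, at adjusted p of 0.0603 to 0.0676. Fdps was the only one of the 8 that was highest among the 6 h CTL libraries in library 4.24. A protein-coding gene model, Gm43738, shares exon sequence with Fdps on the same strand, so its counts are uncertain.

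Fdft1 (ENSMUSG00000021273, chromosome 14, 63145150 to 63179578, - strand) encodes squalene synthase, the first enzyme committed to sterols. It was at 29.1, 31.5 and 36.5 CPM in 6 h CKO libraries, against 29.9, 31.1 and 38.4 CPM in 0 h CKO libraries. In CTL libraries it was at 25.8 to 33.5 CPM at 6 h, with a median of 30.6, and at 25.9 to 32.1 CPM at 0 h, with a median of 28.3. The ranges nearly coincided in both genotypes. The log2 fold changes were 0.03 ± 0.11 in CKO cells (adjusted p = 0.885, edgeR) and 0.05 ± 0.09 in CTL cells (adjusted p = 0.668). With genes under a mean of 1 CPM left out of the fit, the CTL value became 0.29 ± 0.10 and passed (adjusted p = 0.0159). Over the 14146 genes tested both with and without that filter, the median shift in this comparison was 0.24 on the log2 scale. Exons of Fdft1 overlap those of Ctsb on the opposite strand, and the strand setting of the counting is not given in the sources used here.

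Sqle (ENSMUSG00000022351, chromosome 15, 59315077 to 59331192, + strand) encodes squalene epoxidase, a rate-limiting step after squalene. Its levels were 38.0, 41.9 and 65.2 CPM in 6 h CKO libraries, against 29.98, 38.3 and 47.8 CPM in 0 h CKO libraries. In CTL libraries they were 53.1, 37.0, 34.7, 70.0 and 55.9 CPM at 6 h, against 27.8, 37.5 and 39.9 CPM at 0 h. The groups overlapped in both genotypes, and libraries 4.24 and 5.13 lay within the 0 h CTL range. The log2 fold change was 0.37 ± 0.20 in CKO cells (adjusted p = 0.165, edgeR) and 0.45 ± 0.17 in CTL cells (adjusted p = 0.025). The CTL call was lost in 9 of 29 alternatives, among them the replicate block (adjusted p = 0.0526) and the fit without the 0 h CKO libraries 4.24 and 5.6 (adjusted p = 0.0907). It was lost without any 1 of 7 libraries, namely 4.29, 5.6 and 9.20 of 0 h CKO, 5.6 and 9.20 of 0 h CTL, and 9.20 and 10.28 of 6 h CTL, at adjusted p of 0.0747 to 0.13.

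Lss (ENSMUSG00000033105, chromosome 10, 76531588 to 76557138, + strand) encodes lanosterol synthase, which closes the sterol rings. It was at 28.6, 30.4 and 37.3 CPM in 6 h CKO libraries, against 39.5, 41.2 and 45.5 CPM in 0 h CKO libraries. In CTL libraries it was at 28.03, 11.5, 26.8, 40.7 and 32.3 CPM at 6 h, against 38.0, 41.9 and 46.4 CPM at 0 h. The CKO groups did not overlap, with all 3 of the 6 h libraries lower, and in CTL only library 9.20 reached the 0 h range. Lss fell by 0.64 ± 0.18 on the log2 scale in CTL cells (adjusted p = 0.00529, edgeR), a call kept under all 29 alternatives; without library 4.24 it fell by 0.40 ± 0.11. In CKO cells the log2 fold change was -0.29 ± 0.22 (adjusted p = 0.324), and without the 6 h CTL library 4.24, which enters the shared estimate of spread and of the sex term, it was -0.35 ± 0.12 and passed (adjusted p = 0.0261). An antisense transcript, 4930483K19Rik, overlaps its exons.

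Insig1 (ENSMUSG00000045294, chromosome 5, 28071363 to 28078662, + strand) encodes the endoplasmic reticulum protein that retains Scap and SREBP2. It stood at 82.4, 94.5 and 119 CPM in 6 h CKO libraries, against 48.9, 51.9 and 67.3 CPM in 0 h CKO libraries. It stood at 101, 54.7, 70.3, 128 and 109.6 CPM in 6 h CTL libraries, against 43.6, 53.3 and 56.5 CPM in 0 h CTL libraries. As with Hmgcs1, the CKO groups were apart and in CTL only library 4.24 overlapped. Insig1 rose by a log2 fold change of 0.89 ± 0.19 in CKO cells (adjusted p = 0.00214, edgeR) and 0.80 ± 0.16 in CTL cells (adjusted p = 0.000345), and both calls were kept under all 29 alternatives. No annotated gene overlaps Insig1.

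Srebf2 (ENSMUSG00000022463, chromosome 15, 82147181 to 82205379, + strand, with Mir33 in an intron) encodes the transcription factor. It stood at 343, 357 and 385 CPM in 6 h CKO libraries, against 369.9, 402 and 496 CPM in 0 h CKO libraries. It stood at 308, 119, 306.5, 375 and 325.5 CPM in 6 h CTL libraries, against 276, 403 and 429 CPM in 0 h CTL libraries. The groups overlapped in both genotypes, and the 6 h CTL library 4.24 lay far below the other 4. In CKO cells the log2 fold change was -0.07 ± 0.22 (adjusted p = 0.829, edgeR). In CTL cells Srebf2 fell by 0.47 ± 0.18 (adjusted p = 0.0297), a call lost in 8 of 29 alternatives; without library 4.24 the value was -0.25 ± 0.11 (adjusted p = 0.0589). The call was also lost without 0 h CTL library 4.24 or 10.28 or 6 h CTL library 4.29, at adjusted p of 0.0502 to 0.0566. Its mRNA level does not show how much SREBP2 protein was processed.

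**Figure D2:**
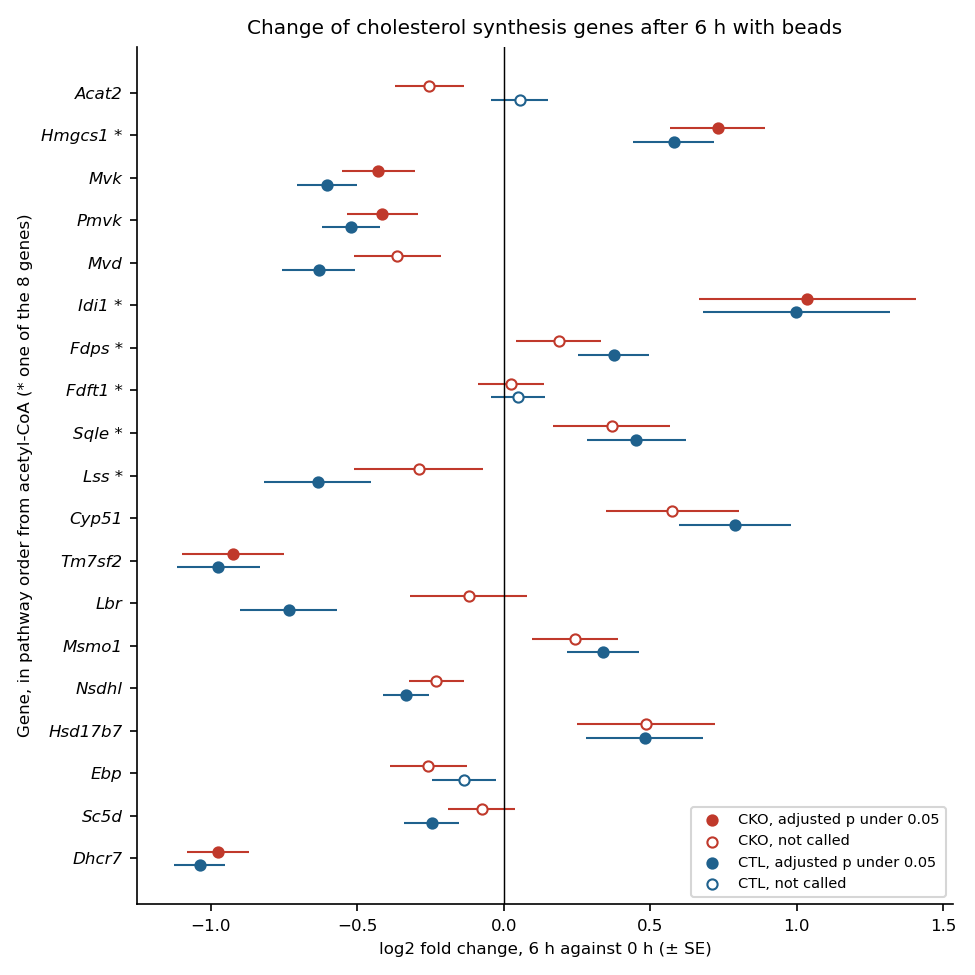
Log2 fold change at 6 h against 0 h, with its standard error, for enzymes of sterol synthesis, in pathway order in CKO and in CTL cells; filled points passed the test, and a star marks the enzymes among the 8 genes. Hmgcs1 and Idi1 lie to the right of 0 in both genotypes, and Dhcr7 and Tm7sf2 to the left in both.

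Non-overlapping groups gave a smaller count than the test in CTL cells. In CKO cells 3 of the 8 genes lay wholly above the 0 h libraries at 6 h, where 29.9% of all tested genes did so, and Lss lay wholly below, where 17.1% did. In CTL cells 0 of the 8 lay wholly above or below, where 17.3% and 12.6% of all tested genes did. In the fit without 6 h CTL library 4.24, 5 genes rose and 1 fell in CTL cells (35.6% and 22.6% of all genes), and 3 rose and 1 fell in CKO cells (26.7% and 18.3%). Without the 0 h CKO libraries 4.24 and 5.6, 3 rose and 2 fell in CTL cells (39% and 24.2% of all genes), and 2 rose and 0 fell in CKO cells (19% and 12%). The sign of the log2 fold change was the same in CKO and CTL cells for 8 of 8 genes.

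CKO and CTL cells did not differ in any of the 8 genes past the test's threshold. At 6 h edgeR called 0 of 8, where it called 0.292% of all tested genes (0.253% higher and 0.0392% lower), and 0 of 8 had an unadjusted p under 0.05; DESeq2 also called 0. At 0 h edgeR called 0 of 8, where it called 0.424% of all tested genes (0.231% higher and 0.192% lower), with 0 under an unadjusted p of 0.05 and 0 by DESeq2. Of the 8 genes, 0 had groups that did not overlap, at 6 h beside 3.65% of all tested genes wholly higher and 3.05% wholly lower in CKO libraries, and at 0 h beside 0.951% and 0.979%. The log2 fold changes lay between -0.07 and 0.34 at 6 h and between -0.14 and 0.22 at 0 h, with standard errors of 0.11 to 0.38 and of 0.10 to 0.34. These errors leave room for differences of the size seen for Fdps and Srebf2, so a missed threshold does not show equal levels.

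Over all libraries, Srebf2 had the largest difference at 6 h, which rested on library 4.24. Its mean was 362 ± 21.2 CPM in 6 h CKO and 287 ± 97.8 CPM in 6 h CTL libraries (SD, n = 3 and 5), a log2 fold change of 0.34 ± 0.21 with an unadjusted p of 0.123 and an adjusted p of 0.434 by edgeR. Without the 6 h CTL library 4.24 it was 0.15 ± 0.13, and the largest difference was then that of Idi1, at -0.27 ± 0.28, against -0.03 ± 0.38 with it. Hmgcs1 was at 0.23 ± 0.16 with that library and at 0.13 ± 0.15 without it. The values of Insig1 and Lss at 6 h, 0.08 ± 0.20 and 0.20 ± 0.22, became -0.06 and 0.01 without that library. At 0 h the largest difference was that of Fdps, at 28.2 ± 4.39 CPM in CKO and 24.3 ± 1.70 CPM in CTL libraries (SD, n = 6 each), a log2 fold change of 0.22 ± 0.13 with an unadjusted p of 0.105 and an adjusted p of 0.778 by edgeR; without the 0 h CKO libraries 4.24 and 5.6 it was 0.10 ± 0.13, and Lss, at -0.18 ± 0.25, was then the largest.

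The response to 6 h with beads did not differ between CKO and CTL cells past the threshold either. For the interaction, the log2 response of CKO cells minus that of CTL cells, edgeR called 0 of the 8 genes and 0 of all 28082, a share of 0%. Of the 8, 0 had an unadjusted p under 0.05 and 0 were called by DESeq2, while 2725 genes in all (9.70%) had an unadjusted p under 0.05. The interaction lay between -0.19 ± 0.19 for Fdps and 0.40 ± 0.29 for Srebf2. Those of Hmgcs1, Idi1 and Insig1 were 0.15 ± 0.22, 0.04 ± 0.51 and 0.08 ± 0.26. With 6 h CTL library 4.24 left out, Srebf2 was at 0.12 ± 0.17 and highest, Idi1 at -0.33 ± 0.37 and lowest, and Insig1 at -0.11 ± 0.22, while Hmgcs1 was at -0.001 ± 0.20 and Lss at 0.06 ± 0.16, against 0.34 ± 0.29 for Lss with it. Without the 0 h CKO libraries 4.24 and 5.6, Fdps was at -0.01 ± 0.19. The order of these values was thus not stable, nor were the signs of Hmgcs1, Idi1, Insig1, Fdft1 and Sqle over all alternatives. Fdps, Srebf2 and Lss kept their sign in every alternative tried.

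**Figure D3:**
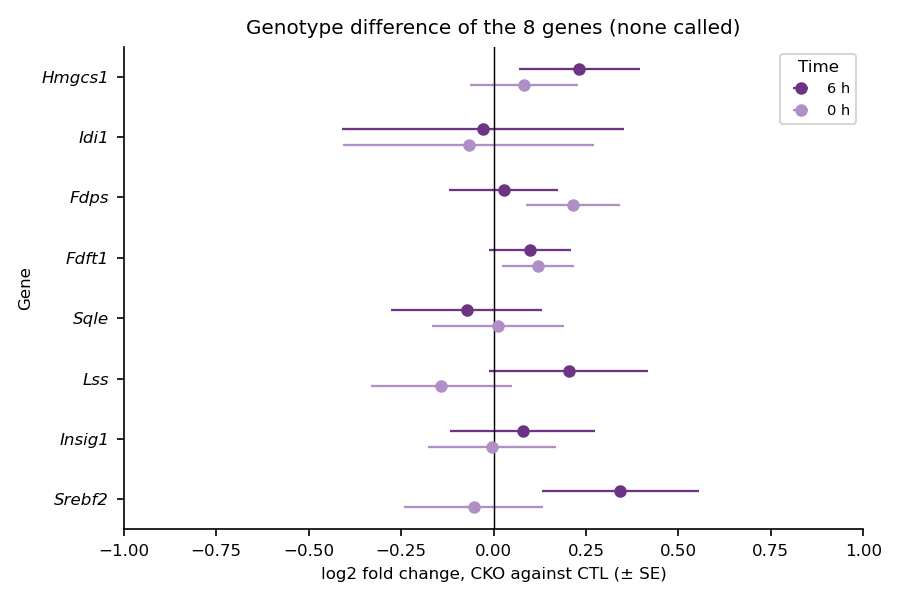
Log2 fold change of CKO against CTL, with its standard error, for the 8 genes at 6 h and at 0 h. All points lie between -0.14 and 0.34, and none passed the test.

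Per kb of exon sequence, Srebf2 had the highest level of the 8 genes in every group. It averaged 50.4 ± 2.95 CPM per kb in 6 h CKO, 57.7 ± 6.65 in 0 h CKO, 39.9 ± 13.6 in 6 h CTL and 53.4 ± 8.21 in 0 h CTL libraries (SD, n = 3, 6, 5 and 6). Insig1 came next at 31.8 ± 5.96, 18.02 ± 2.60, 29.99 ± 9.61 and 16.9 ± 1.54 CPM per kb in the same order of groups, and then Hmgcs1 at 25.0 ± 3.45, 15.7 ± 2.47, 21.2 ± 5.26 and 14.0 ± 1.00 CPM per kb. As neighbours in this order, Insig1 and Hmgcs1 overlapped in their mean ± SD in 6 h CKO, 0 h CKO and 6 h CTL libraries but not in 0 h CTL libraries, and Srebf2 and Insig1 overlapped in 6 h CTL libraries. Sqle, Fdft1, Fdps and Idi1 lay close together at 6 h, between 7.47 and 8.72 CPM per kb in CKO and between 7.12 and 9.04 in CTL libraries, within their SDs. At 0 h Fdft1, Sqle and Fdps averaged 7.72, 7.10 and 6.69 CPM per kb in CKO and 6.84, 6.51 and 5.77 in CTL libraries. Lss was lowest at 6 h, at 2.98 ± 0.43 CPM per kb in CKO and 2.58 ± 0.99 in CTL libraries; at 0 h Lss and Idi1 shared the low end, at 3.86 and 3.94 CPM per kb in CKO and 3.90 and 3.61 in CTL libraries. Exon length is the union of all annotated exons, which for Lss is 10787 bases, so genes with many long transcript forms are set low on this scale.

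The other 15 enzymes of sterol synthesis did not share a direction. In CKO cells 1 rose and 4 fell at 6 h against 0 h, where 19.6% of all tested genes rose and 13.1% fell. In CTL cells 4 rose and 8 fell, where 41.6% of all rose and 21.7% fell. The median log2 fold change was -0.23 in CKO cells and -0.25 in CTL cells. Dhcr7, a reductase of the last steps before cholesterol, fell, with a log2 fold change of -0.98 ± 0.11 in CKO cells (adjusted p = 2.22e-06, edgeR) and -1.04 ± 0.09 in CTL cells (adjusted p = 2.53e-08). Tm7sf2, a sterol reductase that acts after lanosterol, also fell, at -0.93 ± 0.18 in CKO cells and -0.98 ± 0.14 in CTL cells. The kinases Mvk and Pmvk, which phosphorylate mevalonate, fell too, at -0.43 ± 0.12 and -0.42 ± 0.12 in CKO cells and -0.60 ± 0.10 and -0.52 ± 0.10 in CTL cells. Both CKO calls were lost without the 6 h CKO library 5.13 or 11.18 (adjusted p of 0.0791 to 0.119).

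Cyp51, the lanosterol demethylase, had a log2 fold change of 0.58 ± 0.23 in CKO cells, which did not pass (adjusted p = 0.0563, edgeR) but did in 9 of 29 alternatives, among them RLE factors (adjusted p = 0.0332) and the fit without the 6 h CTL library 4.24 (0.55 ± 0.21, adjusted p = 0.0378). It rose by 0.79 ± 0.19 in CTL cells (adjusted p = 0.00146). In the fit without 6 h CTL library 4.24, 2 of the 15 rose and 6 fell in CKO cells and 3 rose and 7 fell in CTL cells. Without the 0 h CKO libraries 4.24 and 5.6, 0 rose and 4 fell in CKO cells and 1 rose and 9 fell in CTL cells.

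Among 11 genes of a list on the control of SREBP2 and of sterol synthesis, 0 rose and 1 fell in CKO cells, and 0 rose and 4 fell in CTL cells, beside the shares of all genes given above. Without the 6 h CTL library 4.24, 1 rose and 1 fell in CKO cells and 1 rose and 3 fell in CTL cells; without the 0 h CKO libraries 4.24 and 5.6, 0 changed in CKO cells and 4 fell in CTL cells. Insig2, the second Insig protein, fell, with a log2 fold change of -0.31 ± 0.10 in CKO cells (adjusted p = 0.0225, edgeR, lost in 9 of 29 alternatives) and -0.44 ± 0.08 in CTL cells (adjusted p = 0.000168), opposite in sign to Insig1. The CKO call of Insig2 was lost without 0 h CKO library 4.29, 5.6 or 9.20 or 6 h CKO library 5.13 or 11.18, at adjusted p of 0.0513 to 0.173. Of 9 genes of cholesterol uptake and trafficking, 1 rose and 2 fell in CKO cells, and 1 rose and 3 fell in CTL cells; without the 0 h CKO libraries 4.24 and 5.6, 4 fell in CTL cells. Tmem97, a sterol-regulated membrane protein that binds the lysosomal cholesterol exporter NPC1, rose by 1.03 ± 0.26 in CKO cells (adjusted p = 0.00611) and 1.61 ± 0.23 in CTL cells (adjusted p = 1.41e-05). Without the 6 h CKO library 11.18 the CKO value was 0.47 ± 0.26 and did not pass (adjusted p = 0.238). Gramd1a, which carries cholesterol between the plasma membrane and the endoplasmic reticulum, fell, at -0.88 ± 0.22 in CKO cells and -1.63 ± 0.18 in CTL cells. Lipa, the lysosomal acid lipase, fell as well, at -0.53 ± 0.17 in CKO cells and -0.90 ± 0.14 in CTL cells. With the 6 h CKO library 11.18 left out, Gramd1a was at -0.74 ± 0.25 (adjusted p = 0.0539) and Lipa at -0.35 ± 0.19 (adjusted p = 0.219) in CKO cells, and without the 6 h CKO library 5.13 Lipa had an adjusted p of 0.0522.

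Between genotypes, edgeR called 0 genes of these 3 lists at 6 h, at 0 h or in the interaction in the main fit. At 6 h, 4 of 15, 3 of 11 and 3 of 9 had an unadjusted p under 0.05, beside 12.7% of all tested genes, and DESeq2 called 0, 1 and 0, beside 1.54% of all. At 0 h the counts at an unadjusted p under 0.05 were 1, 0 and 1, beside 7.54% of all, and for the interaction 1, 1 and 1, beside 9.70%. DESeq2 called 0 in each, beside 1.5% of all genes at 0 h and 0% in the interaction.

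Within groups the 8 genes varied together. Over the residuals of log2 CPM from the group means in 20 libraries, 26 of the 28 pairs had a positive Pearson correlation, with a median r of 0.77 and a range of -0.13 to 0.94. With 6 h CTL library 4.24 left out, 28 of 28 pairs were positive, with a median r of 0.76 and a lowest r of 0.43. In the 12 libraries of 0 h alone, 28 of 28 were positive, with a median of 0.70. In the 8 libraries of 6 h alone, 25 of 28 were positive, with a median of 0.83 and a lowest r of -0.42. Against the mean of the other 7, Insig1 had r = 0.97, Hmgcs1 0.95, Sqle 0.92, Idi1 0.91, Fdft1 0.78, Srebf2 0.74 and Lss 0.73. Fdps had r = 0.27, and 0.74 without library 4.24, where it lay above its group while the other genes lay below. These values are descriptions: libraries share depth and number, and are not all independent.

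**Figure D4:**
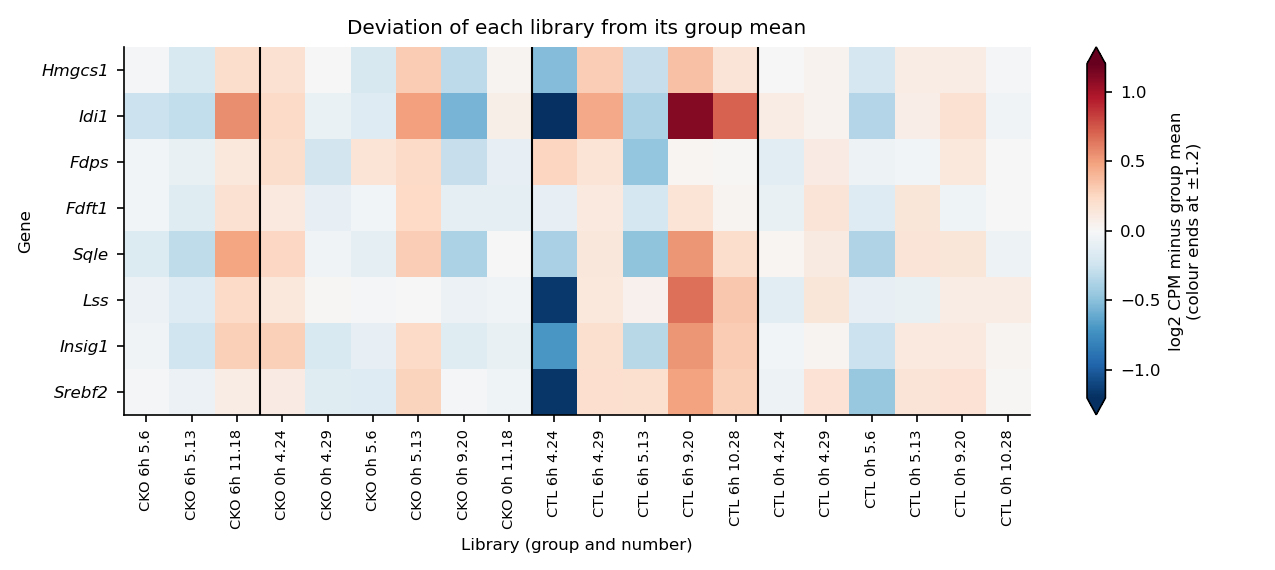
Deviation of each of the 8 genes from its group mean, in log2 CPM, in each library by group. The genes move together in most libraries, and in the 6 h CTL library 4.24 Idi1, Srebf2 and Lss lie far below their group means while Fdps lies above.

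The genes whose deviations were most like the mean of the 8 were ranked among 14181 genes with a mean of at least 1 CPM, whose median r was 0.15. Cyp51 came first, with r = 0.95 over 20 libraries, and the 10 most alike also held Trmt10c (0.93), Impdh1 (0.92), Hsd17b7 (0.90), Hmga1 (0.90), Thumpd1 (0.90) and Adsl (0.89). Cyp51 and Hsd17b7 encode enzymes of sterol synthesis after lanosterol. Impdh1 and Adsl encode enzymes of purine synthesis, and Hmga1 encodes a chromatin protein. With 6 h CTL library 4.24 left out, Cyp51 again ranked 1 and Hsd17b7 ranked 16. In the 12 libraries of 0 h the order changed, with Hsd17b7 at rank 31, Cyp51 at 54 and Impdh1 at 81.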

How the data were processed

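RNA from splenic T effector cells was measured in 20 libraries. The authors deposited whole-number raw counts per Ensembl gene. Tools listed without roles, per the submitters' processing notes, were STAR 2.5.2b, Subread 1.5.2, featureCounts and Trimmomatic 0.36, with the build GRCm38; annotation release and strand setting were not given in the sources used here. Libraries were stranded, per the labels' protocols. Of 49315 gene IDs, 49056 matched GENCODE M21 and 259 did not; 0 columns belonged to other samples.

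Counts were tested with edgeR 4.0.16 (R 4.3.3, limma 3.58.1): filterByExpr (minimum count 10, minimum total 15) left 28082 genes, all 8 described genes among them. TMM factors scaled libraries, and a quasi-likelihood model over 20 libraries held the 4 groups and the labelled sex. Adjusted p is two-sided, by Benjamini and Hochberg over all 28082 genes; ± is a standard error for log2 fold changes and an SD for levels. The fit was also run on simulated counts, with changes placed in 0 h CKO libraries only. Those changes were larger than the genotype differences of the 8 genes, so that run does not show how well such differences are found. Precision rests on the spread between libraries, with depths of 26.4 M to 85.6 M counts.

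Same-numbered libraries deviated together in each pair of groups with 3 or more pairs. The r was 0.30 to 0.63 between CKO and CTL at 0 h. Between times it was 0.18 to 0.49 in CKO and 0.32 to 0.50 in CTL. Libraries of different numbers were not compared, so these values cannot show that the number pairs libraries. The main fit treated same-numbered libraries as independent, and a block for the number replaced the sex term in an alternative. Other alternatives were RLE factors, no low-count filter, a mean CPM of at least 1, DESeq2 1.42.0, no sex term, sex read from Xist, only the groups compared, and leaving out libraries. The genes and lists were chosen with earlier results of these data known. Named beside the 8 are at most 4 called genes per list with the smallest adjusted p, and the 10 genes most alike in their deviations; others are said to be named after their values were seen. Promoters came from RefSeq GRCm38.p6. Some genes that met this rule are not reported here.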

Additional observations from a re-analysis of the deposited data

Results flagged for a closer look

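Srebf2 in the 6 h CTL library 4.24 was far from the other libraries of its group: it stood at 119 CPM, and the nearest of the other 4 at 306.5 CPM. The gap was 0.734 of the group's range, above the critical value of 0.71. This was 1 of 24 such tests, and chance gives about 1 in 20. The same library had the fewest counts (26.4 M) and the highest TMM factor (1.37). Their part in the low value was not tested.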

How the results depend on the processing

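Over 1152 values of the 8 genes under the alternatives, 1113 kept their side of the threshold, 36 calls were lost, 3 were gained and 0 reversed sign; 102 changed sign while not called. The number of the 8 genes called stayed between 2 and 4 in CKO cells and between 5 and 7 in CTL cells at 6 h against 0 h when each library was left out, and was 0 for both genotype comparisons and the interaction. In CTL cells the split was 5 higher and 2 lower in the main analysis and 6 higher and 1 lower (85.7% higher, against 71.4%) with a mean CPM of at least 1; RLE factors gave 83.3%. With the replicate block, 3 genes rose and 2 fell in CTL cells, and 2 rose in CKO cells. With sex read from Xist, the 0 h genotype values of Idi1, Insig1 and Srebf2 changed sign, while the other genes kept theirs. They were 0.09 ± 0.31, 0.08 ± 0.16 and 0.08 ± 0.17, against -0.07 ± 0.34, -0.003 ± 0.17 and -0.05 ± 0.19 in the main analysis. The rise of Idi1 in CKO cells then had an adjusted p of 0.0503 by edgeR.

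Counts over all genes moved more. At 6 h CKO against CTL, 82 genes were called; a mean CPM of at least 1 gave 126, DESeq2 432, the replicate block 46 and only the groups compared 8, and leaving out each library gave 16 to 212. At 0 h, 119 were called; DESeq2 gave 421, no sex term 198, sex read from Xist 223, the replicate block 220 and only the groups compared 200, with 49 to 283 when each library was left out. At 6 h against 0 h, 9203 were called in CKO cells (4836 with a mean CPM of at least 1, 4848 to 12042 when each library was left out) and 17791 in CTL cells (7417, and 15561 to 19210). The interaction gave 0 in each. Under a mean CPM of at least 1 the share of calls that were higher was 70.6% against 86.6% at 6 h (75.5% with DESeq2), 48.1% against 59.9% in CKO cells and 52.9% against 65.7% in CTL cells. Over the 14146 genes tested both with and without that filter, the median shift in log2 fold change was 0.24 in CTL cells and 0.11 in CKO cells. It was -0.10 for CKO against CTL at 6 h and -0.12 in the interaction. Rnf139, an E3 ligase gene of the SREBP2 control list that was called lower in CTL cells, had a log2 fold change of 0.047 there under that filter. The cause of these shifts was not tested. The co-variation of the 8 genes kept a median r of 0.73 to 0.78 when each library was left out. With 3 libraries in 6 h CKO, comparisons that use that group have the widest errors.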

Other observations

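Genes of sterol efflux, fatty acid synthesis and the other uses of isoprenoids are given by their counts at 6 h against 0 h, beside 19.6% of all tested genes higher and 13.1% lower in CKO cells and 41.6% and 21.7% in CTL cells. Of 12 genes of sterol efflux and the LXR system, 2 rose and 3 fell in CKO cells, and 2 rose and 7 fell in CTL cells. With 6 h CTL library 4.24 left out, 3 rose and 7 fell in CTL cells, and without the 0 h CKO libraries 4.24 and 5.6, 0 rose and 3 fell in CKO cells. Soat1, which esterifies cholesterol for storage, fell, with a log2 fold change of -0.83 ± 0.11 in CKO cells and -0.91 ± 0.09 in CTL cells. Nceh1, a cholesteryl ester hydrolase, fell, at -0.73 ± 0.10 in CKO cells and -0.77 ± 0.09 in CTL cells. Sult2b1, a sterol sulfotransferase, rose by 0.46 ± 0.14 in CKO cells and 0.76 ± 0.12 in CTL cells. Its CKO call was lost in 6 of 29 alternatives, with an adjusted p of 0.0556 without the 0 h CKO libraries 4.24 and 5.6, and of 0.0694, 0.0634 and 0.111 without 0 h CKO library 4.29, 0 h CKO library 5.6 and 6 h CKO library 11.18. The exporter Abca1, named after its values were seen, had a log2 fold change of -0.59 ± 0.29 in CKO cells (adjusted p = 0.124, edgeR) and fell, at -1.32 ± 0.24, in CTL cells (adjusted p = 0.00015).

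Of 14 genes of fatty acid synthesis, 1 rose and 2 fell in CKO cells, and 2 rose and 6 fell in CTL cells. In the fit without 6 h CTL library 4.24, 2 rose and 3 fell in CKO cells and 3 rose and 6 fell in CTL cells. Scd2, a fatty acid desaturase, fell, at -2.02 ± 0.21 in CKO cells and -2.42 ± 0.17 in CTL cells. The elongase Elovl6 rose, at 1.12 ± 0.20 in CKO cells and 0.55 ± 0.17 in CTL cells (adjusted p = 0.0517 without 0 h CTL library 9.20). Of 13 genes that use isoprenoids outside sterols, 0 rose in either genotype, 4 fell in CKO cells and 5 fell in CTL cells. Without the 6 h CTL library 4.24, 1 rose and 5 fell in CKO cells and 3 rose and 6 fell in CTL cells, and without the 0 h CKO libraries 4.24 and 5.6, 2 fell in CKO cells. Fntb, the beta subunit of protein farnesyltransferase, fell, at -0.72 ± 0.12 in CKO cells and -0.94 ± 0.10 in CTL cells. In the main fit, edgeR called 0 genes of these 3 lists between genotypes. At 6 h, 7 of 12, 3 of 14 and 1 of 13 had an unadjusted p under 0.05 (12.7% of all genes). DESeq2 called 3, 0 and 1 there (1.54% of all). At 0 h the counts were 4, 1 and 1 (7.54% of all), with 0, 1 and 0 by DESeq2 (1.5% of all). For the interaction, edgeR called 0, with 2, 3 and 1 under an unadjusted p of 0.05 (9.70% of all) and 0 by DESeq2. Sult2b1 was called lower in CKO than in CTL cells at 6 h by DESeq2, and by edgeR with a mean CPM of at least 1. Its 6 h levels did not overlap, at 5.57 to 6.83 CPM in CKO and 8.34 to 9.88 CPM in CTL libraries. Its log2 fold change lay between -0.661 and -0.487 over the alternatives, and only these 2 called it. Most of its list leaned the other way at 6 h, with 8 of 12 log2 fold changes positive and a median of 0.31. Nr1h2, which encodes an LXR and is named after its values were seen, was higher without overlap, at 231 to 236 CPM in CKO and 118.5 to 195 CPM in CTL libraries. Of all tested genes, 3.65% were wholly higher and 3.05% wholly lower at 6 h.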
